A study of Mus musculus with 6 samples.

Results

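Aminoacyl-tRNA synthetases attach each amino acid to its transfer RNA, and separate nuclear genes encode most of the enzymes that work in the cytosol and in mitochondria. The 36 mouse genes considered here were chosen by symbol, 20 for cytosolic enzymes and 16, with names ending in 2, for mitochondrial ones. A gene was followed when its symbol stood in the name field of a row of the deposited expression table. This found 31 of the 36 genes among 31097 rows, 16 cytosolic and 15 mitochondrial, each in 1 row. Farsa, Hars, Mars, Qars and Tars2 were not analysed here. Of the 31 rows, only that of Yars carried a further name, a small nucleolar RNA.

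RNA was sequenced from 3T3-F442A cells, a mouse preadipocyte line whose cell type is given as adipocyte in the labels. The SWELL1 KO group (3 libraries) came from lines in which CRISPR/Cas9 had been used to disrupt SWELL1 (Lrrc8a), which encodes an essential part of the anion channel that opens when cells swell. The WT group (3 libraries) came from the parental line with SWELL1 intact, and both groups were grown in RPMI with fetal bovine serum. Libraries of a group are called biological replicates, but whether KO libraries derive from 1 clone, and whether cells were differentiated, is not stated. The KO sample names alone carry the mark D3, which no label explains. Clone, that mark and genotype cannot be told apart, and p-values reflect only how far these 6 libraries vary. Lrrc8a shares its row with Nup188 and Phyhd1, which ran from 27.3 to 28.8 FPKM in KO and from 32.5 to 35.0 FPKM in WT libraries, so that row does not check the knockout.

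The table's values were read as FPKM, fragments scaled to transcript length and library size, the unit that Cufflinks writes, so levels of different genes may be compared. Estimated depth, in megafragments, was 18.4 to 25.9 in KO libraries and 17.1 to 20.8 in WT libraries. The 8 adipocyte markers, 7 with a row, summed to 2.71 to 4.63 FPKM in KO and 137 to 196 FPKM in WT libraries. Most of each sum was Fabp4, at 2.45, 3.48 and 4.37 FPKM in KO and 188, 156 and 133 FPKM in WT libraries. Adipoq, Pparg and Plin1 averaged 0.0148, 0.127 and 0.101 FPKM in KO and 1.56, 1.83 and 1.01 FPKM in WT. Fabp4 and these genes were the 4 rows called lower in KO, against 36.7% of all tested rows. Adipoq, Pparg and Plin1 passed the filter of 0.5 FPKM on the mean through WT alone. Lep was at 0 in all 6 libraries and Cfd at 0 in all KO libraries. The 5 preadipocyte or fibroblast markers summed to 2479 to 2654 FPKM in KO and 3887 to 4495 FPKM in WT libraries, and all 5 were lower in KO. Summed markers of other cell types were low in both groups, at 0.115 to 0.327 FPKM in KO and 1.29 to 1.64 FPKM in WT libraries for macrophages, 2.04 to 2.45 FPKM in KO and 0.456 to 0.659 FPKM in WT libraries for endothelium, and 1.17 to 1.49 FPKM in KO and 0 to 0.0449 FPKM in WT libraries for epithelium. Skeletal muscle markers were at 0 throughout. One numbered clone, AC166252.2, took 16.7% to 23.7% of the FPKM sum in KO libraries, against 0, 2.10% and 0 in WT libraries. The part of these differences in the results on synthetases was not tested. In bulk RNA, fewer cells of a type and less RNA per cell cannot be told apart.

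In mammals, 8 of the cytosolic enzymes join a multisynthetase complex held together by scaffold proteins, and the others are free or form small assemblies. When amino acids are short, uncharged tRNA activates the kinase GCN2, which phosphorylates eIF2alpha and favours translation of the transcription factor ATF4. ATF4 acts with C/EBP partners on a composite promoter element and is known to raise amino acid synthesis, amino acid transport and many cytosolic synthetase genes. Most mitochondrial enzymes are made from their own genes and imported, while Gars and Kars each supply both compartments.

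That composite element, searched as TGATGNAA on both strands (N is any base), occurred near the start of several cytosolic genes, and the sites are shown because these genes are among those described below. Windows of 250 bases before to 50 bases after each gene start came from RefSeq on GRCm38.p6 and matched 23 of the 31 genes. Cars, Lars, Nars, Rars, Vars, Wars, Hars2 and Pars2 had no entry. The 30 bases around a match in each gene are given 5′ to 3′ on the gene's strand, with the element in capitals and positions counted from the RefSeq gene start. The gene spans printed further on are from GENCODE and can begin elsewhere. The matches shown for Yars, Aars and Iars begin after the RefSeq start and also lie inside the GENCODE spans of those genes. Asns, a known ATF4 target outside the synthetases, is shown beside them.
Yars (chr4:129189895-129189924, plus strand): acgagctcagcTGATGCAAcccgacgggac
Gars (chr6:55037960-55037989, plus strand): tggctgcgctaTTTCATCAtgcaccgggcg
Aars (chr8:111033840-111033869, plus strand): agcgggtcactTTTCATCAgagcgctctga
Iars (chr13:49682126-49682155, plus strand): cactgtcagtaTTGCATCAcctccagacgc
Tars (chr15:11399655-11399684, minus strand): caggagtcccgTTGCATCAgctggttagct
Asns (chr6:7693214-7693243, minus strand): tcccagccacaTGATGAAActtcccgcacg

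The element began at position 4 in Yars, -30 in Gars, 10 in Aars, 8 in Iars and -15 in Tars. It was read on the gene's own strand in Yars and Asns and on the opposite strand in the rest. A match was found in 5 of 10 cytosolic genes with a window, in 0 of 13 mitochondrial genes, and in 1219 of 27025 genes overall (4.51%). Dars, Eprs, Farsb, Kars and Sars had no match in these windows. A match is a description of letters and not a tested binding site. The 250 bases before the start of Gars (chr6:55037751-55038000, plus strand) show where its match lies, in capitals.
Gars: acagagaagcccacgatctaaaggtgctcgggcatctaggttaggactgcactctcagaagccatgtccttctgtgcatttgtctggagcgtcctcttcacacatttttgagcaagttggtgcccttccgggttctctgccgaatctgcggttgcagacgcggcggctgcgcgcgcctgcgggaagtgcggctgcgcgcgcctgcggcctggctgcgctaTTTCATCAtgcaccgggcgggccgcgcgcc

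Cytosolic synthetase messages were mostly lower in KO cells, and mitochondrial ones moved in both directions. Of 16 cytosolic rows, 11 fell and 2 rose, with a median log2 fold change (KO minus WT) of -0.35. Of 14 mitochondrial rows tested, 5 fell and 5 rose, with a median of 0.11. One of those 5 higher rows, Cars2, was listed at 0 in WT and passed the filter on low values through KO alone. Without it 5 of 13 fell and 4 rose, with a median of 0.06. Ears2, listed at 0 in all 6 libraries, was not tested. Over all 10515 rows tested, 36.7% were lower in KO, 28.5% were higher and 65.2% changed in either direction, with a median log2 fold change of -0.07. The cytosolic share that fell, 68.8%, stood above that background and the mitochondrial share, 35.7%, close to it. The groups did not overlap in 12 of 16 cytosolic and 10 of 14 mitochondrial rows, against 71.8% of all tested rows. Calls are from limma on log2(FPKM + 0.5) with an adjusted p under 0.05 over all tested rows, a scale that understates the change of low genes. Median-ratio scaling between libraries moved the median of all rows by 0.10, and under it and under quantile normalization 8 cytosolic rows fell and 3 rose, with 5 mitochondrial rows in each direction.

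**Figure D1:**
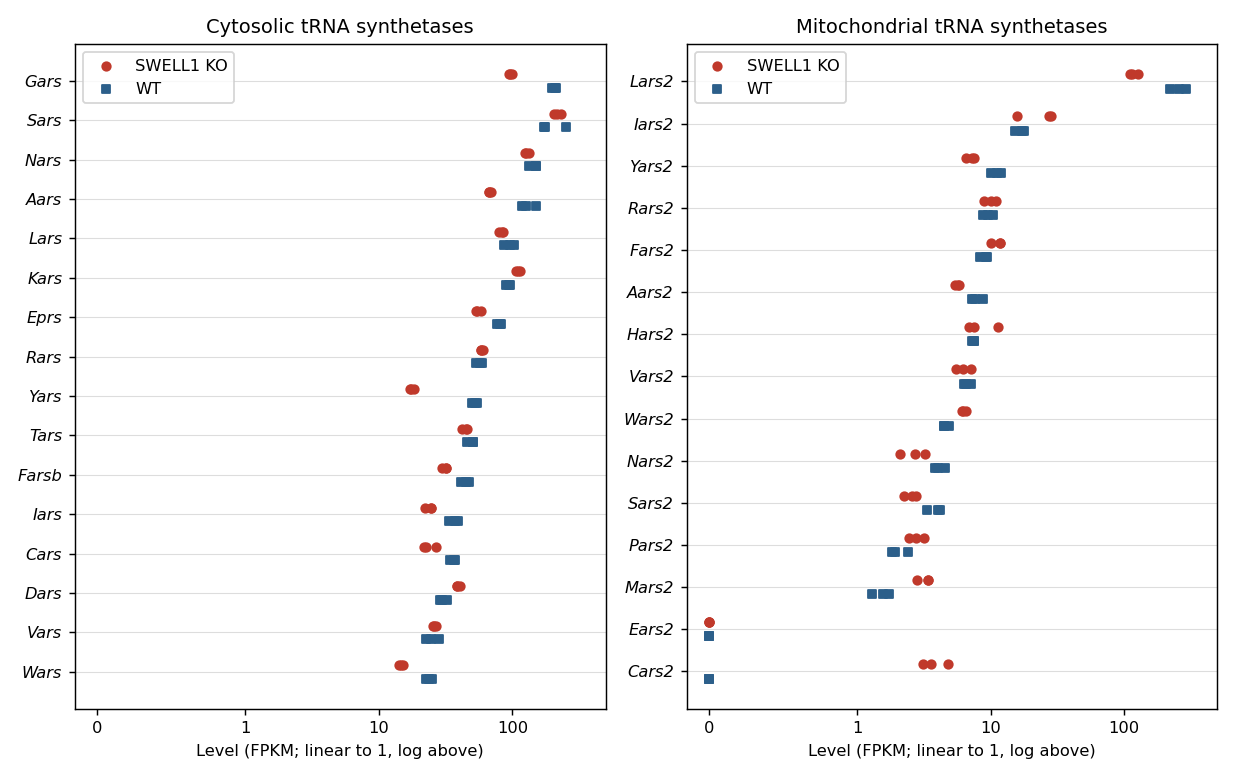
Level of each tRNA synthetase in FPKM in every library, with the 3 SWELL1 KO libraries as circles above the 3 WT libraries as squares and genes ordered by their WT mean (the axis is linear up to 1 and logarithmic above). Yars, Gars, Aars and Lars2 show wide gaps between the groups, and Cars2 is listed at 0 in WT.

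Yars, Gars and Aars, which charge tyrosine, glycine and alanine, showed the largest falls among cytosolic enzymes. Yars (chromosome 4, 129189760 to 129219607, GRCm38) stood at 16.9, 17.5 and 18.2 FPKM in KO libraries, against 49.4, 52.8 and 54.6 FPKM in WT libraries. All 3 KO libraries lay below every WT library, 2.98-fold lower by the means (log2 fold change -1.55, SE 0.05, adjusted p = 7.08e-06). Gars (chromosome 6, 55038007 to 55079500) stood at 93.7, 95.9 and 99.2 FPKM in KO and at 197, 207 and 212 FPKM in WT libraries. The groups were again apart, and the KO mean was 2.13-fold lower (log2 fold change -1.09, SE 0.04, adjusted p = 9.45e-06). Aars (chromosome 8, 111033144 to 111057664) stood at 66.7, 69.7 and 67.3 FPKM in KO and at 126, 150.1 and 118 FPKM in WT libraries. The KO libraries were close together and 1.93-fold below the more spread WT libraries (log2 fold change -0.94, SE 0.09, adjusted p = 0.000275). The annotated Aars transcript shares 1326 bases with Exosc6, whose reads were not told apart from it here. Gars and Yars were the cytosolic rows past a 2-fold fall, 2 of 16, against 9.51% of all tested rows, and none was 2-fold higher, against 7.52%.

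Wars, Iars, Cars, Eprs and Farsb formed a second tier, with KO levels 1.43-fold to 1.62-fold below WT. Wars, for tryptophan, stood at 14.1, 15.2 and 14.6 FPKM in KO and at 22.5, 24.9 and 23.6 FPKM in WT libraries (log2 fold change -0.67, SE 0.05, adjusted p = 0.00013). Iars, for isoleucine, stood at 22.2, 24.7 and 24.8 FPKM in KO and at 33.5, 38.9 and 37.1 FPKM in WT libraries (log2 fold change -0.60, SE 0.07, adjusted p = 0.000732). In both genes every KO library lay below every WT library, although 1656 bases of the Iars transcript are 96.0% identical to a processed pseudogene, Gm4849. Cars, for cysteine, stood at 21.7, 22.7 and 26.7 FPKM in KO and at 34.0, 37.3 and 36.3 FPKM in WT libraries (log2 fold change -0.59, SE 0.09, adjusted p = 0.00161). Eprs, which charges both glutamate and proline on 1 protein, stood at 54.7, 53.6 and 58.1 FPKM in KO and at 76.9, 82.6 and 80.4 FPKM in WT libraries (log2 fold change -0.52, SE 0.05, adjusted p = 0.0002). Those groups did not overlap either. Farsb, the beta subunit of the phenylalanine enzyme, fell to 32.0, 29.9 and 32.0 FPKM in KO libraries, against 41.4, 47.4 and 45.2 FPKM in WT libraries (log2 fold change -0.50, adjusted p = 0.000736).

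Lars, Nars and Tars, for leucine, asparagine and threonine, fell by small amounts that did not outlast a change of scaling. Lars stood at 83.2, 79.0 and 84.7 FPKM in KO and at 86.8, 102 and 95.3 FPKM in WT libraries (log2 fold change -0.20, adjusted p = 0.0424). Nars stood at 125, 126 and 134 FPKM in KO and at 133, 151 and 150.4 FPKM in WT libraries (log2 fold change -0.17, adjusted p = 0.0481), and its groups overlapped by 1 library each. Tars stood at 42.2, 44.6 and 45.4 FPKM in KO and at 46.1, 50.6 and 50.3 FPKM in WT libraries (log2 fold change -0.15, adjusted p = 0.0478). All 3 calls were lost under median-ratio scaling, and under quantile normalization the log2 fold changes were 0.03 for Lars, 0.02 for Nars and 0.04 for Tars. They were also lost in several fits that left out 1 library: Lars without any KO library or WT replicate 2 or 3 (adjusted p from 0.0672 to 0.12), Nars without KO replicate 1 or 2 or WT replicate 2 or 3 (from 0.124 to 0.135), and Tars without any KO library or WT replicate 2 or 3 (from 0.0585 to 0.129).

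Dars and Kars, for aspartate and lysine and both members of the multisynthetase complex, went the other way. Dars rose to 38.7, 40.2 and 38.2 FPKM in KO libraries, against 29.6, 32.2 and 28.6 FPKM in WT libraries (log2 fold change 0.37, SE 0.05, adjusted p = 0.00154). Kars stood at 107, 110.3 and 115 FPKM in KO and at 89.8, 96.2 and 93.6 FPKM in WT libraries (log2 fold change 0.25, SE 0.04, adjusted p = 0.00335). In both genes all KO libraries lay above all WT libraries, and both calls held under every alternative tried. Among the 6 complex enzymes tested, Eprs, Iars and Lars fell, Dars and Kars rose, and Rars did not pass, against 8 of 10 enzymes outside the complex that fell and 0 that rose. Of all tested rows 36.7% fell and 28.5% rose. Under both scalings 2 of the 6 complex enzymes fell and 3 rose, and their median changed sign (-0.07 as deposited). Outside the complex, Nars and Tars lost their calls under both scalings.

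Rars, Sars and Vars, for arginine, serine and valine, did not pass. Rars stood at 60.0, 58.6 and 58.1 FPKM in KO and at 53.6, 57.2 and 59.2 FPKM in WT libraries, with a 95% interval for the log2 fold change of -0.06 to 0.17 (adjusted p = 0.332). It passed as higher under median-ratio scaling (adjusted p = 0.015) and quantile normalization (adjusted p = 0.00231). Sars stood at 215, 206 and 229.9 FPKM in KO and at 177, 250.2 and 173 FPKM in WT libraries, an interval of -0.23 to 0.51 (adjusted p = 0.453). WT replicate 2 was the high library, and without it Sars passed as higher in KO (log2 fold change 0.31, adjusted p = 0.00802). Vars stood at 25.5, 26.9 and 25.8 FPKM in KO and at 24.6, 28.2 and 22.6 FPKM in WT libraries, an interval of -0.15 to 0.26 (adjusted p = 0.582).

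**Figure D2:**
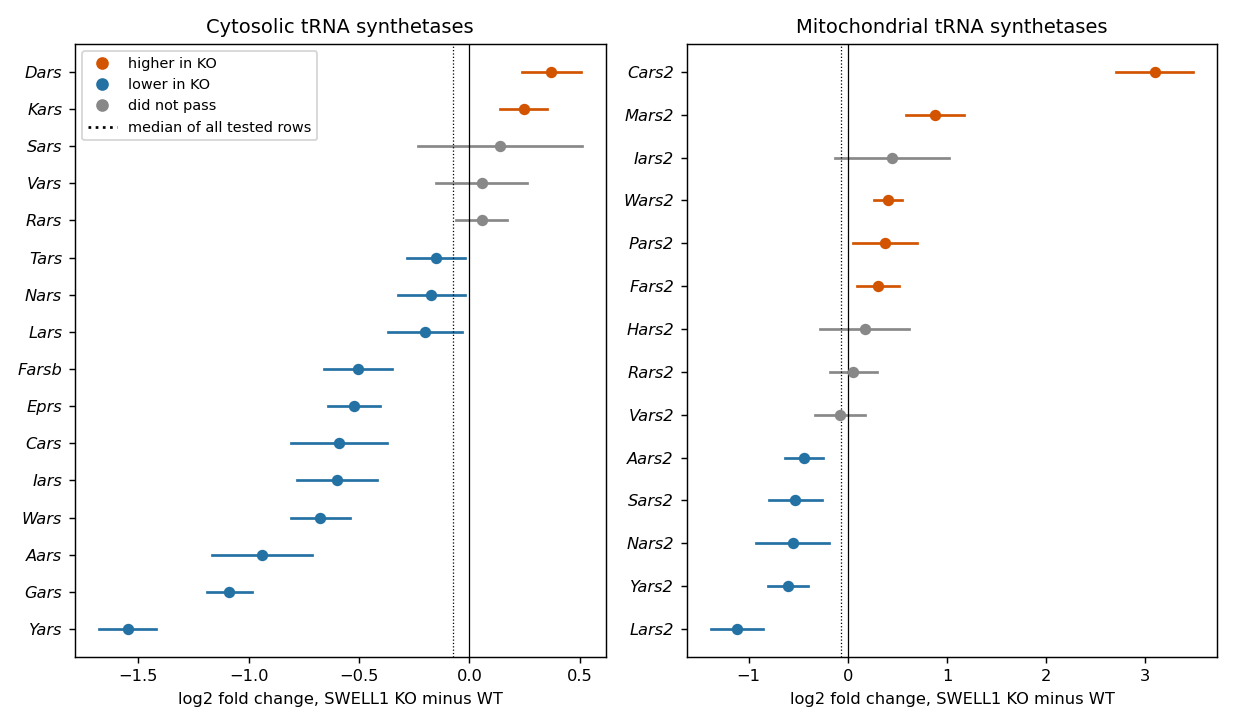
Log2 fold change (SWELL1 KO minus WT, on log2(FPKM + 0.5)) of each tested tRNA synthetase with its 95% confidence interval from limma, and a dotted line at the median of all tested rows, -0.07. Of 16 cytosolic rows 11 fell, while the 14 mitochondrial rows split into 5 lower, 5 higher and 4 that did not pass.

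The order of levels among cytosolic enzymes shifted with these changes. In KO cells Sars was highest, with a mean of 217 ± 12.1 FPKM (SD, n = 3), followed by Nars at 128 ± 5.20, Kars at 111 ± 3.79 and Gars at 96.3 ± 2.76. In WT cells Gars led at 205 ± 7.44 FPKM, followed by Sars, whose SD was 43.5 FPKM, then Nars at 145 ± 9.80 and Aars at 131 ± 16.7. Gars and Sars did not differ beyond their spread in WT, whereas Gars ranked 4 of 16 in KO. Wars was lowest in both groups, and Yars ranked 15 in KO and 9 in WT. Summed over the 16 genes, cytosolic synthetase messages reached 1019, 1021 and 1072 FPKM in KO libraries, against 1221, 1409 and 1280.2 FPKM in WT libraries. The KO sum was 0.796 times the WT sum, with no overlap between the groups.

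Mitochondrial enzymes were lower than cytosolic ones by their median, although Lars2 reached the cytosolic range in both groups and Iars2 in KO alone. The median over the 15 genes was 5.53, 6.08 and 6.16 FPKM in KO libraries and 6.57, 6.27 and 7.15 FPKM in WT libraries. The corresponding cytosolic medians were 48.5, 49.1 and 51.8 FPKM in KO and 51.5, 55.0 and 56.9 FPKM in WT libraries. Lars2 (chromosome 9, 123366927 to 123462666), for leucine in mitochondria, stood at 111, 114 and 126 FPKM in KO and at 222, 256 and 289.8 FPKM in WT libraries. The groups were far apart, 2.18-fold by the means (log2 fold change -1.12, SE 0.11, adjusted p = 0.000253). Lars2 was the 1 mitochondrial row of 14 past a 2-fold fall, against 9.51% of all tested rows. The next highest mitochondrial row, Iars2, averaged 23.8 FPKM in KO and 16.8 FPKM in WT. A stretch of 97 bases in the Lars2 transcript is 94.8% identical to the transcript of another locus, AA474408, whose own row stood at 0.219, 0 and 0.376 FPKM in KO and at 6.52, 0 and 8.21 FPKM in WT libraries. Its part in the Lars2 values was not tested. Summed over the 15 genes, mitochondrial synthetase messages reached 195, 213 and 225 FPKM in KO libraries, against 304, 342 and 375 FPKM in WT libraries. The KO sum was 0.620 times the WT sum, with no overlap between the groups, and Lars2 made up most of it in WT. Without Lars2, they summed to 84.2, 98.4 and 99.0 FPKM in KO libraries, against 82.6, 86.0 and 84.7 FPKM in WT libraries, and the groups overlapped.

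Besides Lars2, the mitochondrial rows that fell were Yars2, Nars2, Sars2 and Aars2. Yars2, for tyrosine, stood at 6.55, 7.25 and 7.47 FPKM in KO and at 10.0, 11.2 and 11.9 FPKM in WT libraries (log2 fold change -0.60, SE 0.08, adjusted p = 0.00119). Aars2, for alanine, stood at 5.45, 5.83 and 5.67 FPKM in KO and at 7.64, 8.74 and 7.28 FPKM in WT libraries (log2 fold change -0.44, SE 0.08, adjusted p = 0.0033). The enzymes of both compartments passed as lower for tyrosine and alanine, and also for leucine and asparagine, where the cytosolic calls of Lars and Nars were lost under other scalings. Sars2, for serine, stood at 2.57, 2.74 and 2.24 FPKM in KO and at 3.36, 4.04 and 4.17 FPKM in WT libraries (log2 fold change -0.53, adjusted p = 0.00618). Nars2, for asparagine, stood at 2.09, 2.70 and 3.25 FPKM in KO and at 4.54, 3.82 and 4.02 FPKM in WT libraries (log2 fold change -0.55, adjusted p = 0.0187). The groups did not overlap in these 4 genes, but Nars2 lost its call without WT replicate 1 (adjusted p = 0.0628).

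Mars2, Wars2, Pars2, Fars2 and Cars2 were higher in KO. Mars2, for methionine, stood at 3.42, 3.41 and 2.81 FPKM in KO and at 1.28, 1.55 and 1.72 FPKM in WT libraries (log2 fold change 0.88, SE 0.12, adjusted p = 0.00114). Wars2, for tryptophan, stood at 6.48, 6.08 and 6.16 FPKM in KO and at 4.46, 4.83 and 4.46 FPKM in WT libraries (log2 fold change 0.41, SE 0.06, adjusted p = 0.00137). Both calls held under every alternative that tested them, and for tryptophan the cytosolic enzyme fell while the mitochondrial one rose. Fars2, for phenylalanine, stood at 11.8, 10.0 and 11.8 FPKM in KO and at 9.37, 8.30 and 9.25 FPKM in WT libraries (log2 fold change 0.30, adjusted p = 0.0221). The gene overlaps Lyrm4 (higher in KO) by 115 bases and Nrn1 (lower in KO) by 920 bases, both on the opposite strand. Pars2, for proline, stood at 2.45, 3.18 and 2.78 FPKM in KO and at 1.91, 2.41 and 1.82 FPKM in WT libraries (log2 fold change 0.38, adjusted p = 0.0438). Fars2 lost its call without KO replicate 1 or 3 or WT replicate 2 (adjusted p from 0.0654 to 0.0696), with log2 fold changes of 0.25 to 0.27 in those fits. Pars2 lost its call without KO replicate 2 or 3 or WT replicate 1 or 3 (adjusted p from 0.0953 to 0.123), with log2 fold changes of 0.30 to 0.38.

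Cars2 (chromosome 8, 11513977 to 11550783), for cysteine, was listed at 3.59, 4.75 and 3.13 FPKM in KO libraries and at 0 in all 3 WT libraries (adjusted p = 2.41e-05), so no fold change is given. An exact 0 in this table need not mean absence, since 231 of the 8117 rows that reached 5 FPKM combined a 0 with a value of 5 FPKM or more among the libraries of a single group. Cars2 overlaps Naxd on the opposite strand by 984 bases, and the row of Naxd (named Carkd in the table) was lower in KO, at 31.9, 36.3 and 32.8 FPKM, against 41.0, 42.5 and 44.9 FPKM in WT libraries. Ears2, for glutamate, was listed at 0 throughout and likewise overlaps a gene on the other strand, Ubfd1, by 89 bases. Whether these zeros come from the overlaps was not tested.

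Hars2, Iars2, Rars2 and Vars2 did not pass. Iars2, for isoleucine, stood at 15.7, 28.4 and 27.2 FPKM in KO and at 17.2, 17.8 and 15.3 FPKM in WT libraries, a 95% interval of -0.13 to 1.02 for the log2 fold change (adjusted p = 0.141). KO replicate 1 lay among the WT libraries, and without it Iars2 passed as higher (log2 fold change 0.72, adjusted p = 0.00145). Its transcript shares 2034 bases with Rab3gap2 on the opposite strand, which stood at 16.6, 13.4 and 10.0 FPKM in KO and at 15.6, 14.1 and 16.0 FPKM in WT libraries. Hars2, for histidine, stood at 7.51, 6.88 and 11.4 FPKM in KO and at 7.46, 7.46 and 7.27 FPKM in WT libraries, an interval of -0.28 to 0.62 (adjusted p = 0.44). Only KO replicate 3 was high, and the gene overlaps Hars by 198 bases on the opposite strand. Rars2, for arginine, ran from 8.92 to 11.0 FPKM in KO and from 8.79 to 10.3 FPKM in WT libraries (interval -0.18 to 0.29, adjusted p = 0.635). Vars2, for valine, ran from 5.53 to 7.14 FPKM in KO and from 6.27 to 7.15 FPKM in WT libraries (interval -0.33 to 0.17, adjusted p = 0.512).

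Since FPKM are per length, the cytosolic and the mitochondrial enzyme for the same amino acid can be set against each other within a library. This removes a scaling factor common to all genes of a library. Of 11 such pairs, the cytosolic to mitochondrial ratio was lower in every KO library than in every WT library in 6, higher in 3, and overlapped in 2. Among single genes, the groups did not overlap in 71.8% of all tested rows, and ratios of other gene pairs were not examined. The ratio of Wars to Wars2 was 2.17, 2.50 and 2.37 in KO libraries, against 5.05, 5.14 and 5.29 in WT libraries. The ratio of Yars to Yars2 was 2.59, 2.42 and 2.44 in KO and 4.94, 4.71 and 4.59 in WT libraries. In both pairs the cytosolic message stayed in excess but by less. The ratio of Iars to Iars2 was 1.42, 0.868 and 0.910 in KO and 1.94, 2.19 and 2.42 in WT libraries. Iars2 did not pass as a single row, and both transcripts share stretches with other loci (Gm4849 for Iars, Rab3gap2 for Iars2). The part of those stretches in this ratio was not tested. Eprs over Pars2 (16.9 to 22.3 in KO, 34.3 to 44.2 in WT), Farsb over Fars2 (2.70 to 2.99 in KO, 4.42 to 5.71 in WT) and Aars over Aars2 (11.9 to 12.2 in KO, 16.2 to 17.2 in WT) were the other lower pairs.

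The ratio of Lars to Lars2 was 0.749, 0.692 and 0.670 in KO libraries, against 0.391, 0.400 and 0.329 in WT libraries. The listed value of Lars2 was thus above that of Lars in every library. The part of the stretch similar to AA474408 in the Lars2 values was not tested. Nars over Nars2 (41.3 to 59.7 in KO, 29.4 to 39.4 in WT) and Sars over Sars2 (75.1 to 103 in KO, 41.5 to 62.0 in WT) were the other higher pairs. Rars over Rars2 (5.44 to 6.51 in KO, 5.72 to 6.10 in WT) and Vars over Vars2 (3.76 to 4.61 in KO, 3.16 to 4.49 in WT) overlapped. The ratios are given as values with no test, and an exact permutation test of 1 ratio, with 3 libraries against 3, could not go below p = 0.10.

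**Figure D3:**
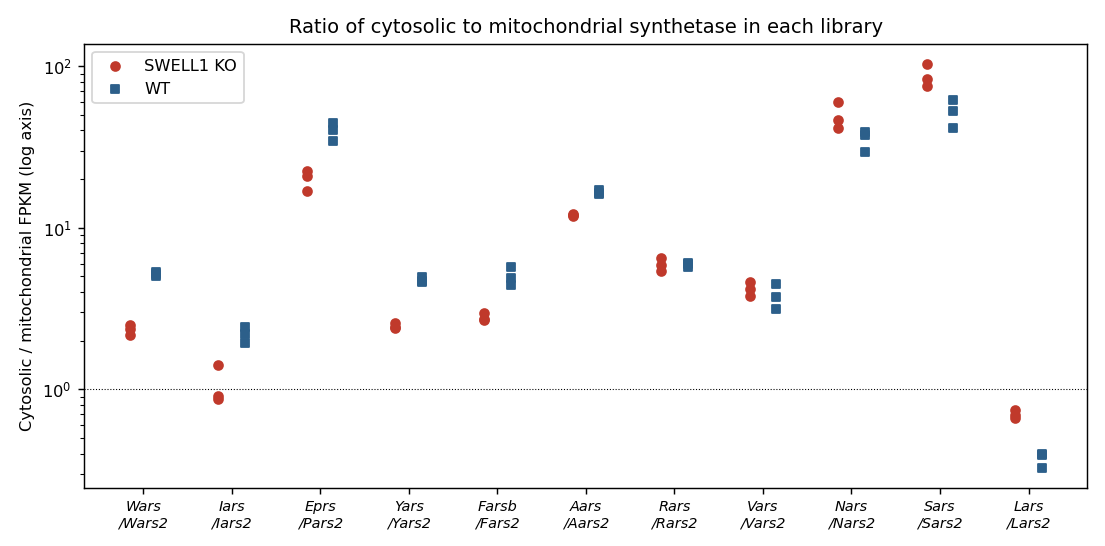
Ratio of cytosolic to mitochondrial FPKM for the 11 pairs with both rows above 0 (log axis), with 3 SWELL1 KO libraries as circles left of 3 WT libraries as squares. In 6 pairs the KO ratios lie below all WT ratios, and in 3 pairs, Nars, Sars and Lars over their mitochondrial counterparts, above them.

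Cytosolic enzymes known as ATF4 targets held most of the falls. Of 11 tested members of that list, 10 fell and 0 rose (median log2 fold change -0.59), with Sars the exception. Of all tested rows 36.7% fell and 28.5% rose. Of the 5 other cytosolic enzymes, Farsb fell, Dars and Kars rose, and Rars and Vars did not pass (median 0.06). Under median-ratio scaling and under quantile normalization 7 of the 11 fell and 0 rose, and 3 of the other 5 rose. The list was drawn up from general knowledge with earlier results of these libraries known, so its count is no independent evidence of a direction. The 5 genes with the promoter element shown above had log2 fold changes of -1.55 (Yars), -1.09 (Gars), -0.94 (Aars), -0.60 (Iars) and -0.15 (Tars). The 5 cytosolic genes with a window and no match ran from -0.52 (Eprs) to 0.37 (Dars), so the ranges overlapped. By fold class, class I and class II enzymes, which differ in the architecture of their catalytic domain, showed no such division. In class I 7 of 15 rows fell (46.7%) and 3 rose (20%), and in class II 8 of 14 fell (57.1%) and 4 rose (28.6%).

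The messages of Atf4, Eif2ak4 and Ddit3 were also lower in KO, and a link to the synthetase changes was not tested. Atf4 stood at 127, 128 and 139 FPKM in KO libraries, against 307, 329 and 322 FPKM in WT libraries, with no overlap (log2 fold change -1.28, SE 0.05, adjusted p = 1e-05). Eif2ak4, the gene of the amino acid sensor GCN2, stood at 9.33, 10.2 and 12.6 FPKM in KO and at 17.3, 14.5 and 18.9 FPKM in WT libraries (log2 fold change -0.64, adjusted p = 0.00856). Ddit3, which encodes the stress factor CHOP, averaged 114 ± 11.9 FPKM in KO and 168 ± 3.48 FPKM in WT (SD, n = 3 each, adjusted p = 0.00134). In the list of eIF2alpha kinases, phosphatases and ATF4-type factors 9 of 12 tested rows fell and 1 rose (median -0.64), against 36.7% lower and 28.5% higher of all tested rows. Ppp1r15a, which directs removal of the eIF2alpha phosphate, fell 3.63-fold, and Eif2ak3, the endoplasmic reticulum stress kinase PERK, fell 1.90-fold. Atf5 was the member that rose (1.26-fold). RNA levels do not report eIF2alpha phosphorylation or ATF4 protein.

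Among amino acid response targets 14 of 18 tested rows fell (77.8%) and 2 rose (11.1%), with a median log2 fold change of -1.50. Of all tested rows 36.7% fell and 28.5% rose. Among the 14 was Psph, whose mean was 0 in KO against 22.4 FPKM in WT. It passed the filter through WT alone. Such a 0 need not mean absence, and both the count and the median of the list include Psph. The list was also chosen with earlier results of these data known. Vldlr, a lipoprotein receptor, averaged 1.03 ± 0.07 FPKM in KO and 24.1 ± 1.22 FPKM in WT. Mthfd2, a mitochondrial one-carbon enzyme, averaged 17.0 ± 1.97 FPKM in KO and 103 ± 6.51 FPKM in WT, and Trib3 fell 4.57-fold. Phgdh, of serine synthesis, and Slc7a11, the cystine transporter, were the members that rose. Changes of this list were larger than those of the synthetases by its median, a difference that was not tested.

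**Figure D4:**
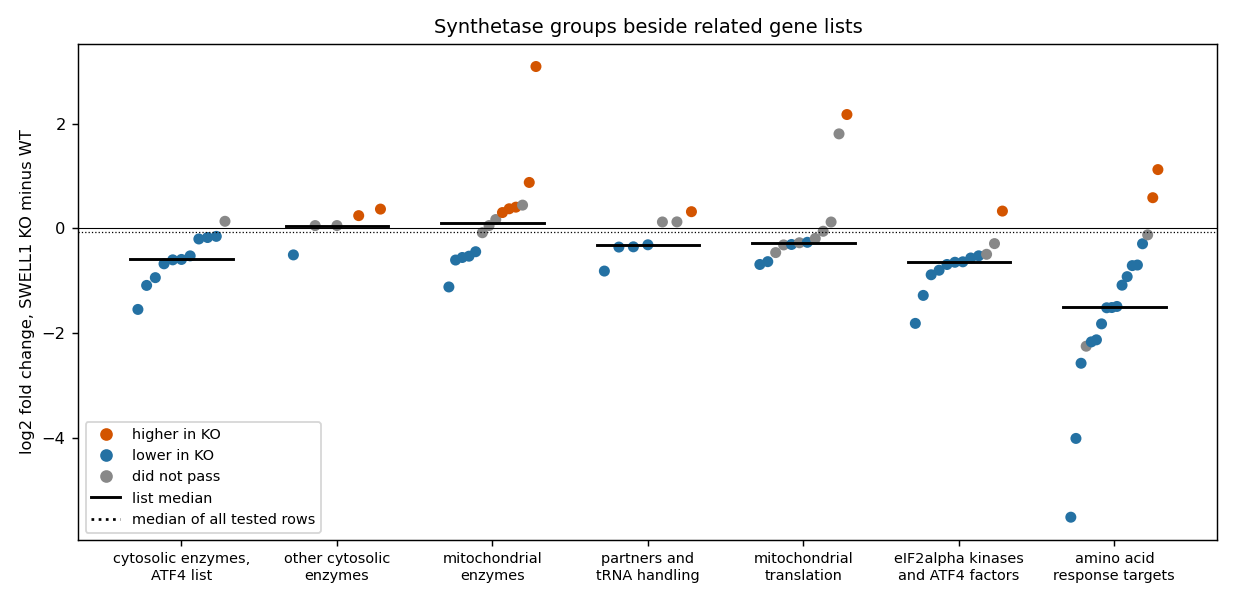
Log2 fold changes (SWELL1 KO minus WT) of tested synthetases and of related gene lists, 1 point per row, with black bars at list medians and a dotted line at the median of all tested rows, -0.07. The ATF4 list of cytosolic enzymes has a median of -0.59 and mitochondrial enzymes one of 0.11, beside -1.50 for amino acid response targets.

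Partners of the enzymes showed a mixed picture. Of 7 tested genes for synthetase partners and tRNA handling, 4 fell (57.1%) and 1 rose (14.3%), against 36.7% and 28.5% of all tested rows (median -0.31). Aimp1, a scaffold of the multisynthetase complex, rose to 89.0 ± 0.84 FPKM in KO, against 71.2 ± 3.25 FPKM in WT (adjusted p = 0.00101). Eef1e1, another complex component, averaged 21.7 ± 1.67 FPKM in KO and 27.9 ± 2.05 FPKM in WT (adjusted p = 0.00899). Trnt1, which adds the CCA end to tRNAs, averaged 9.11 ± 0.37 FPKM in KO and 16.4 ± 1.49 FPKM in WT (adjusted p = 0.000228). Ddx1, an RNA helicase of the tRNA ligase complex, fell 1.28-fold.

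In mitochondrial charging and translation 4 of 12 tested rows fell (33.3%) and 1 rose (8.33%), shares no larger than the 36.7% lower and 28.5% higher of all tested rows (median -0.27), and 2 to 3 fell under the other scalings. Tufm, the elongation factor that carries charged tRNA to the mitochondrial ribosome, averaged 36.4 ± 1.25 FPKM in KO and 59.0 ± 0.34 FPKM in WT (adjusted p = 3.14e-05). Qrsl1, a subunit of the amidotransferase that makes glutaminyl-tRNA in mitochondria, fell 1.66-fold. Gfm1, an elongation factor, fell 1.24-fold, a call lost under quantile normalization (adjusted p = 0.0641). Mtrf1l, a release factor, averaged 7.33 ± 0.78 FPKM in KO and 1.30 ± 0.64 FPKM in WT (adjusted p = 0.000602). Of 8 tested regulators of growth 2 fell and 2 rose, 25.0% each and below the shares of all tested rows: Gabpa and Max fell 1.68-fold and 1.48-fold, and Mtor and Mxd4 rose 1.19-fold and 1.17-fold. Myc was not analysed here.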

How the data were processed

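Messenger RNA was measured in 6 libraries, 3 SWELL1 KO and 3 WT, grouped by their titles. The authors deposited 1 table with a value per library, taken as FPKM by inference, since no header or label names the unit. TopHat, Cufflinks 2.02 and the build GRCm38 are named in the submitters' processing notes. Settings, annotation, strand handling and the order of steps are not stated. Values were used as deposited. Depth was estimated from the lowest FPKM of genes with 1 transcript of at least 2500 bases.

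Testing was restricted to the 10515 rows averaging 0.5 FPKM or more. limma 3.58.1 (R 4.3.3) was run on log2(FPKM + 0.5) (mean-variance trend, two-sided, Benjamini-Hochberg over all tested rows, threshold 0.05), a procedure tested on simulated data. Means ± SD are of FPKM. Members without a row are not reported. Some promoter sequence is not reported here. Members and lists were chosen with earlier results of these data known. All members are named; from other lists, Atf4, Ddit3, Eif2ak4 and Myc, and up to 3 largest changes in each direction past the threshold with groups apart and no library at 0. Alternatives were 2 pseudocounts, 2 filters, 2 scalings, a robust fit, a replicate block and leaving out each library. Shared transcript stretches (at least 90 bases, 94% identity) came from blastn on GENCODE M21. Between libraries of a group, 28.0% to 34.7% of rows above 10 FPKM were over 10% apart, so no library was a repeat deposit. Python 3.11.15, pandas 2.3.3, numpy 2.4.6 and matplotlib 3.10.9 were used.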

Additional observations from a re-analysis of the deposited data

How the results depend on the processing

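Of 23 members called, 17 kept call and direction under all alternatives that tested them, and 6 lost the call under at least 1 (Lars, Nars, Tars, Fars2, Nars2 and Pars2); of 7 not called, Rars, Sars and Iars2 passed under at least 1. Rows were 16 lower and 7 higher; with a filter of 5 FPKM 4 were higher and 3 mitochondrial rows lower, because 5 low members were no longer tested. The cytosolic median of -0.35 moved to -0.24 under median-ratio scaling and -0.14 under quantile normalization. The mitochondrial median of 0.11 moved to 0.22 under median-ratio scaling and 0.055 with the 5 FPKM filter, and ranged from 0.046 to 0.17 when 1 library was left out. Directions turned under quantile normalization for Lars (0.034), Nars (0.023) and Tars (0.039), which were lower without it. Median-ratio scaling turned Vars2 (0.022), which was not called. Leaving out 1 library turned Rars2 (-0.016 to 0.13), Vars2 (-0.17 to 0.00088), Hars2 (-0.039 to 0.31) and Vars (-0.015 to 0.14), none of them called. The cause of these turns was not tested. Without the filter Lars, Nars, Tars and Pars2 lost their calls. With a replicate block Lars lost its call (adjusted p = 0.0842) and 6534 rows passed, against 6860; deviations of same-numbered libraries correlated at 0.00, 0.01 and -0.09, so the numbers were not taken to pair samples. FPKM carry no counts, so values of the low mitochondrial genes, such as Sars2 at an estimated 77 to 162 fragments, are the least precise.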
